A study of Rattus norvegicus with 6 samples.

Results

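miR-320 and miR-484 are noncanonical miRNAs, and their rows in a table of small RNA from rat tissue labelled testicle were taken by name alone. The members are miR-484 and every row whose name begins with miR-320, which gave rno-miR-320-3p, rno-miR-320-5p and rno-miR-484 (the prefix stands for rat), or 3 of the 764 rows. All 3 had a value above 0 in some library and entered the test with 567 others. Male Sprague Dawley rats gave the 6 libraries, 3 labelled HO-1 knockout and 3 labelled WT (wild type). HO-1 is heme oxygenase 1, which degrades heme and is induced by oxidative stress. In every animal the left testicle was turned by 720° for 2 h and tissue was taken after 3 days of reperfusion, so both groups were injured and genotype was the only contrast. Age, and whether the deletion covers the whole body, are not given in the labels.

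Most miRNAs are cut out of a long primary transcript as a hairpin by the nuclear enzyme Drosha, and the hairpin is then cut by Dicer into a pair of strands, named 5p and 3p after the arm they come from. miR-320 and miR-484 are known exceptions: in mammals their short hairpins are made directly by transcription, start with the cap of an RNA polymerase II transcript and go to Dicer without a Drosha cut. A capped 5′ strand is thought to load poorly into Argonaute, and for miR-320 the 3p strand is the known product. Both are broadly expressed, and they serve here as a pair of miRNAs that share a route of synthesis but not a sequence.

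In the RefSeq tables for assembly GRCr8, 1 of the 3 members, miR-484, had a mature sequence. It is shown because its seed, bases 2 to 8 in capitals, sets its targets, beside miR-344a-5p, the row of the table that has the same seed.
miR-484: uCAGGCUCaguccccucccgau
miR-344a-5p: uCAGGCUCcuggcuagauu
The annotated miR-484 hairpin follows, with the mature miRNA in capitals, since the place of the miRNA in it bears on arm use.
mir-484 hairpin: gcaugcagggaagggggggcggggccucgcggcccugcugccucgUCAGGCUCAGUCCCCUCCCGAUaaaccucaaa
The mature miRNA covered bases 46 to 67 of the 77 bases, and RNAfold paired 13 of its 22 bases in the lowest-energy structure. The hairpin was 68.8% G or C, against a median of 49.4% over 419 rat hairpins, of which 12 had more. The mature sequence was 63.6% G or C, against a median of 47.8% over 693 mature miRNAs, of which 57 had more. On GRCr8, the next annotated genes beside Mir320a are Polr3d, for a subunit of RNA polymerase III, and a long noncoding RNA gene. Those beside Mir484 are Nde1, for a centrosomal protein, and Marf1. miR-344a-5p was listed at 0 in all 6 libraries, so miR-484 was the only row with both reads and a RefSeq sequence that has this seed. The other mature miRNA with this seed in RefSeq, miR-344-5p, has no row of its own.

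Values are reads per 1000000 reads assigned to the listed miRNAs (RPM), and library totals recovered from the size of 1 read were 8300536 to 10042673 reads. The tissue label was not borne out by the miRNA content. miR-122-5p, the miRNA of hepatocytes, took 32.7% to 36.6% of each wild type library and 40.2% to 46.4% of each knockout library. The 11 testis markers summed to 35.7 to 52.0 RPM in wild type and 26.1 to 30.5 RPM in knockout libraries, and 4 of them, miR-202-3p, miR-880-3p, miR-883-3p and miR-465-5p, were at 0 in every library. Leukocyte markers summed to 757.3 to 870.8 and 810.9 to 923.3 RPM, red blood cell markers to 280.0 to 360.8 and 227.9 to 274.1 RPM, endothelial markers to 25222 to 26982 and 19147 to 21287 RPM, and smooth muscle markers to 9790 to 14537 and 5842 to 7769 RPM, with the wild type first. Members of the leukocyte, red blood cell and smooth muscle lists did not all move alike. Log2 changes in the knockout were 0.42 for miR-142-3p (leukocyte), 0.12 for miR-144-3p (red blood cell) and 0.08 for miR-145-3p (smooth muscle). In the same lists they were -0.43 for miR-223-3p, -0.37 for miR-451-5p and -0.93 for miR-143-3p. The other members of these lists were at -0.06 (miR-142-5p), -0.30 (miR-150-5p), -0.42 (miR-144-5p) and -0.95 (miR-145-5p). Endothelial changes were -0.39 for miR-126a-3p and -0.77 for miR-126a-5p. In the limma test given below, 2 of 2 endothelial and 2 of 3 smooth muscle markers were called, where 6.32% of all tested miRNAs were. No marker of the other lists was called. Single miRNAs did not overlap between genotypes in 26.0% of those tested on this scale. Fewer cells of a type and less RNA per cell cannot be told apart in such bulk libraries. RPM is also a share, so these sums depend on how much of a library miR-122-5p takes, and they were not rescaled.

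miR-320-3p was the abundant member. Wild type libraries 1 to 3 held 194.77, 182.28 and 212.93 RPM of it, and knockout libraries 1 to 3 held 187.1, 196.76 and 262.82 RPM. The 2 groups overlapped, and knockout library 3 alone lay above all others. Its exact Poisson 95% interval of 252.3 to 273.6 RPM, which covers counting error only, began above the highest upper bound of the other 5, 222.4 RPM. Over all libraries miR-320-3p ranked 98th by mean RPM among the 570 miRNAs with reads, between miR-28-5p, with a mean of 209.3 RPM, and miR-466c-5p, with a mean of 202.9 RPM.

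miR-484 was far rarer. Wild type libraries 1 to 3 held 10.36, 10.63 and 4.54 RPM of it, and knockout libraries 1 to 3 held 9.16, 12.64 and 9.34 RPM. These values rest on 104, 97, 43, 76, 124 and 84 reads. The low library was wild type 3, whose interval of 3.28 to 6.11 RPM ended below the lowest bound of any other library, 7.21 RPM. The remaining wild type libraries lay among the knockout values. By mean RPM miR-484 ranked 220th, next to miR-146a-3p above and miR-193b-3p below it, with means of 9.45 and 9.05 RPM. The ratio of miR-320-3p to miR-484 was 18.8, 17.1 and 46.9 for wild type libraries 1 to 3 and 20.4, 15.6 and 28.1 for knockout libraries 1 to 3, a ratio of RPM between different sequences that also carries their unequal efficiency of ligation.

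**Figure D1:**
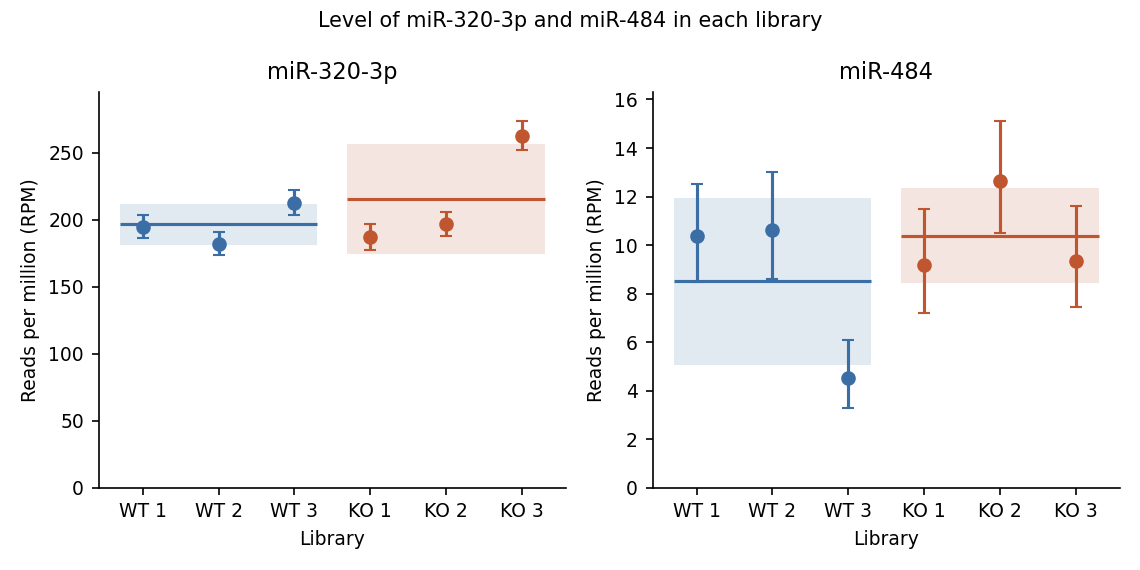
Level of miR-320-3p (left) and miR-484 (right) in each library, in RPM on axes that start at 0, with WT for wild type and KO for knockout. Bars on the points are exact Poisson 95% intervals, horizontal lines the group means and shaded bands ± 1 SD (n = 3); knockout library 3 is high for miR-320-3p at 262.82 RPM, and wild type library 3 is low for miR-484 at 4.54 RPM.

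The arms of miR-320 were used almost to the exclusion of 5p. miR-320-5p had 1 read in wild type library 3, equal to 0.11 RPM, and 0 reads in each of the other 5 libraries, where 3 reads, the limit that a count of 0 allows, correspond to 0.299 to 0.361 RPM. Beside it stood 11484 reads of miR-320-3p. The 5p strand thus held 0.0087% of the 11485 reads of the hairpin (exact Clopper-Pearson 95% interval 0.00022% to 0.049%, counting error only). Summed by genotype, there was 1 read of 5p among 5639 in the wild type, and 0 among 5846 in the knockout. For the knockout the limit from 3 reads is a share of 0.051%, and the exact 95% interval ends at 0.063%. Within single libraries with a count of 0 the limit from 3 reads is 0.13% to 0.19%, and the exact interval ends at 0.16% to 0.24%. With reads in a single library, a permutation test of this share could give no p other than 1, so arm use was not compared between genotypes.

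Other hairpins had arm use as uneven. Among 84 pairs of rows that differ only in the arm and sum to at least 100 RPM, the minor arm held a median of 1.15% of the reads, with quartiles of 0.124% and 5.92%. It was under 0.1% in 19 of the 84. Of the 83 pairs other than miR-320, 14 lay at or below the upper bound of miR-320, 0.049%, and 69 lay above it. The place of miR-320 within the first of these groups rests on 1 read. By point value 6 pairs were lower. Of those 6, miR-203b and miR-328a had 0 reads of the minor arm, where the limit from 3 reads lies above the share of miR-320, and let-7g, miR-26a, miR-101b and miR-21 were sequenced far more deeply than miR-320. These 6 were named after their values were seen. They are not known as Drosha-independent, so a minor share this low was not particular to miR-320. The 3p arm was the major one in 35 of the 84 pairs. For miR-484 no second arm has a row, so its arm use was not measured. Its annotated sequence lies toward the 3′ end of the hairpin shown above.

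**Figure D2:**
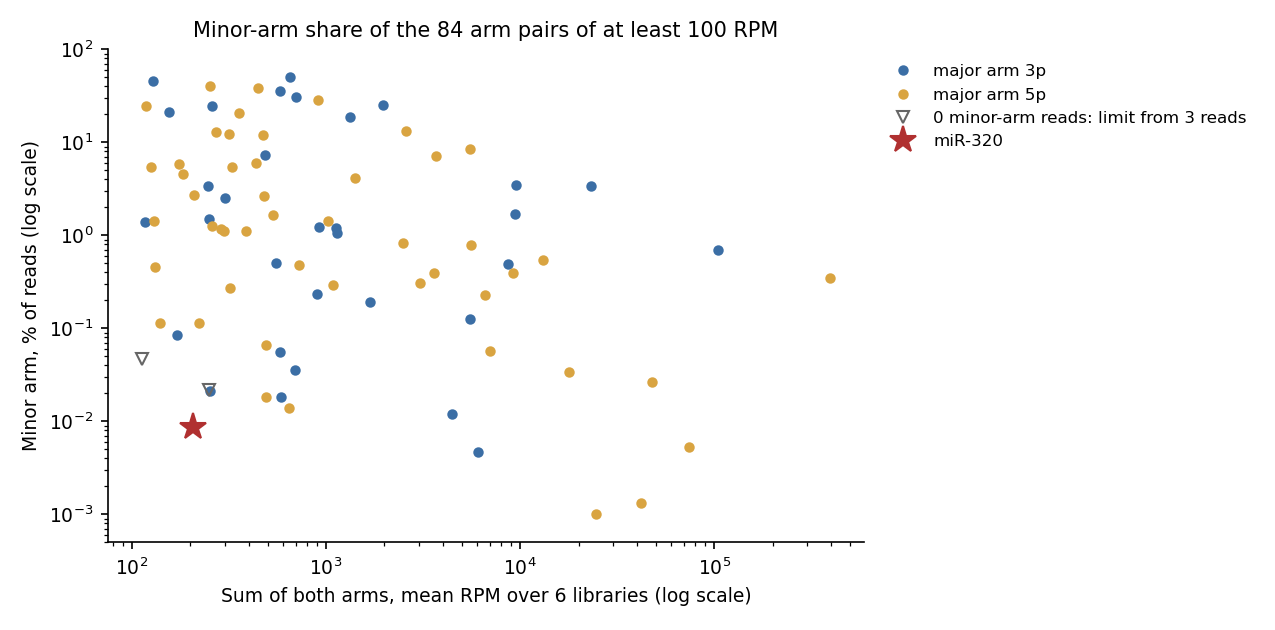
Share of the minor arm in the 84 arm pairs of at least 100 RPM against the summed mean RPM of both arms, each on a log axis, with colour giving the major arm. Open triangles are the 2 pairs with 0 minor-arm reads, drawn at the limit of 3 reads; miR-320, the star, lies at 0.0087%, with let-7g, miR-26a, miR-101b and miR-21 below it at higher abundance.

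Neither miR-320-3p nor miR-484 passed the test between genotypes, and nor did miR-320-5p: 0 of the 3 members were called, where 6.32% of all tested miRNAs were (limma on log2(RPM + 1), Benjamini-Hochberg adjusted p below 0.05). At an unadjusted p below 0.05 the count was also 0, where 19.3% of all tested miRNAs had one. On recovered reads edgeR's quasi-likelihood test, which called 10.7% of all miRNAs, called 0 of the 3. DESeq2 gave an adjusted p to 349 miRNAs, called 20.6% of them, and called 0 of the 2 members that had one, miR-320-3p and miR-484. The mean of miR-320-3p was 196.7 ± 15.4 RPM over wild type and 215.6 ± 41.2 RPM over knockout libraries (SD, n = 3). Its log2 change was 0.12 (SE 0.16; adjusted p = 0.707 in limma), with a 95% interval of -0.25 to 0.48, which spans 0.84-fold to 1.40-fold. Without knockout library 3, on the RPM scale, the change was -0.03 (limma adjusted p = 0.904). The interval of the 6 libraries covers both a rise and a smaller fall.

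The mean of miR-484 was 8.51 ± 3.44 RPM over wild type and 10.38 ± 1.96 RPM over knockout libraries (SD, n = 3). Its log2 change was 0.32 (SE 0.34; adjusted p = 0.608 in limma), with a 95% interval of -0.46 to 1.10, or 0.73-fold to 2.15-fold on the scale of RPM + 1. Without wild type library 3 the change was -0.03 (limma adjusted p = 0.948), so on the RPM scale the direction of the estimate rested on that library. Fits with a library left out were made on that scale only, with no further scaling. Its residual SD on the log2 scale, 0.46, was exceeded by 11 of the 218 miRNAs of at least 10 RPM, whose median was 0.20, while miR-320-3p was at that median with 0.20. For miR-320-5p, with 1 read in all, the fitted log2 change of -0.05 (limma adjusted p = 0.707) carries no information on direction. The authors' deposited table gives log2 fold changes of 0.1324 for miR-320-3p and 0.2866 for miR-484, with p-values of 0.0873 and 0.109. Those p-values come with no stated test or adjustment, though the submitters' notes name edgeR among their tools. The unadjusted p was 0.473 and 0.365 in limma. It was 0.0554 and 0.075 in edgeR's quasi-likelihood test on recovered reads. The deposited folds compare mean RPM, and the limma changes compare mean log2(RPM + 1). For miR-320-5p the authors' deposited table gives -1.8758 with a p-value of 1. That fold equals the log2 ratio with 0.01 RPM put in place of the mean of 0, as in all 69 rows where 1 of the deposited means is 0.

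The estimates of both members moved up when libraries were rescaled. Over the 218 miRNAs with a mean of 10 RPM or more, the median log2 change was -0.286 on the RPM scale, where 54 of the 218 were above 0, and -0.071 with TMM scaling. With TMM scaling miR-320-3p changed by 0.34 (limma adjusted p = 0.303) and miR-484 by 0.53 (limma adjusted p = 0.358). With totals that leave out the 10 most abundant miRNAs the changes were 0.37 and 0.56 (limma adjusted p = 0.228 and 0.354), and in that setting alone miR-320-3p had an unadjusted p below 0.05, at 0.044. With totals that leave out only miR-122-5p they were 0.31 and 0.50 (limma adjusted p = 0.327 and 0.483). No scaling brought a member past the threshold, while TMM scaling called 8.60% of all tested miRNAs.

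**Figure D3:**
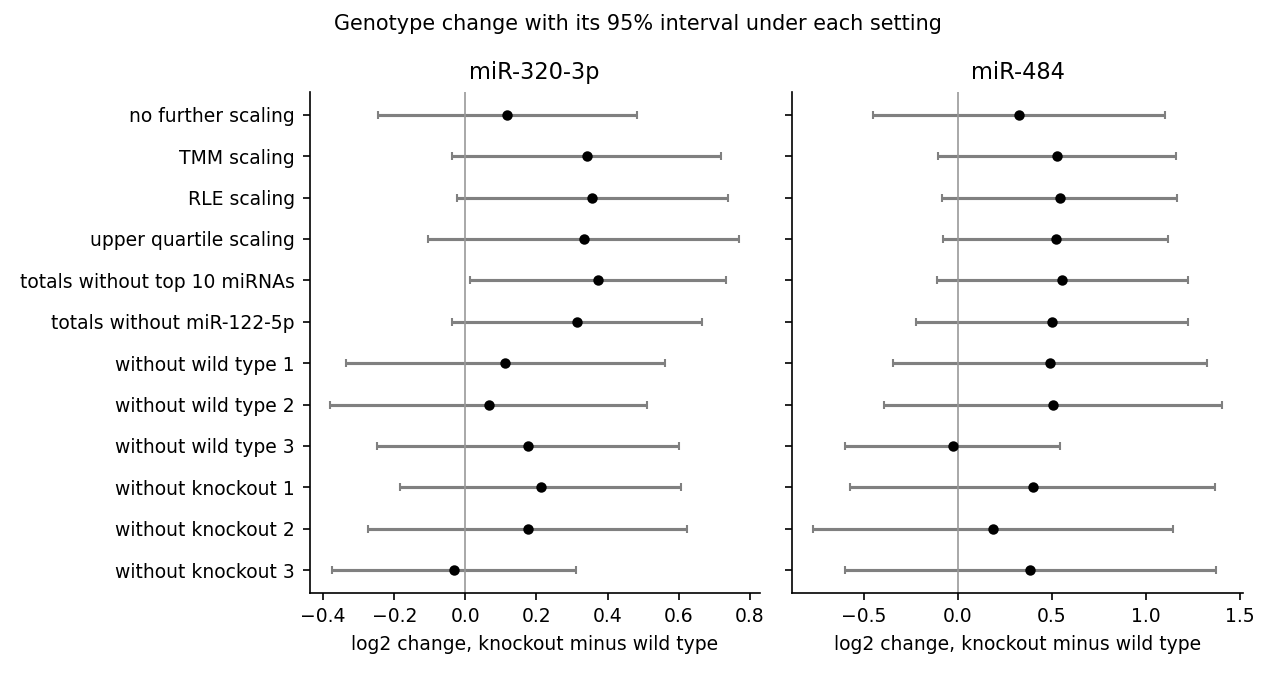
log2 change between knockout and wild type for miR-320-3p (left) and miR-484 (right) under each scaling and with each library left out. Points have 95% intervals from limma on log2(RPM + 1), and the fits with a library left out had no further scaling. The miR-320-3p point falls to -0.03 without knockout library 3 and the miR-484 point to -0.03 without wild type library 3, and the intervals include 0 except for miR-320-3p with totals without the 10 most abundant miRNAs.

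The values behind these shifts show which libraries moved. With RLE scaling, wild type libraries 1 to 3 held 8.40, 9.88 and 4.69 rescaled RPM of miR-484, and knockout libraries 1 to 3 held 10.9, 12.9 and 9.93. The groups then no longer overlapped, by a margin far below the counting error of these libraries. The groups also separated with upper quartile scaling and with totals without the 10 most abundant miRNAs, but not with TMM scaling or with totals without miR-122-5p. All 3 knockout libraries lay above all 3 wild type libraries in 11.6% of the tested miRNAs with RLE scaling, in 11.2% with upper quartile scaling and in 12.5% with totals without the 10 most abundant, so such a separation was common. miR-320-3p overlapped between genotypes in each scaling tried. With RLE scaling, wild type libraries 1 to 3 held 157.9, 169.4 and 220.2 rescaled RPM of it, and knockout libraries 1 to 3 held 222.0, 200.1 and 279.5.

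Together the 3 members held 0.0205% ± 0.0012 of the assigned reads of wild type libraries and 0.0226% ± 0.0041 of those of knockout libraries (SD, n = 3; p = 0.6 in the exact permutation test). Of these reads 11484 were miR-320-3p, 528 miR-484 and 1 miR-320-5p, so the sum mostly follows miR-320-3p. As a share of the reads other than miR-122-5p, the 3 members came to 0.0305%, 0.0303% and 0.0343% for wild type libraries 1 to 3 and to 0.0366%, 0.0350% and 0.0483% for knockout libraries 1 to 3. On that scale every knockout library lay above every wild type library, which gives the smallest p this design can reach (exact permutation test, p = 0.1). The nearest libraries overlapped in counting error, since the exact Poisson 95% interval of wild type library 3 reached up to 0.0358% and that of knockout library 2 down to 0.0335%. As a share of the reads outside the 10 most abundant miRNAs the exact permutation test also gave p = 0.1. There wild type library 3 and knockout library 2 both rounded to 0.113%. With totals without miR-122-5p, miR-320-3p and miR-484 taken singly each overlapped between genotypes, and 8.60% of all tested miRNAs were higher in every knockout library. The log2 ratio of miR-484 to miR-320-3p needs no scaling. It averaged -4.63 ± 0.80 over wild type and -4.38 ± 0.43 over knockout libraries (SD, n = 3; p = 0.7 in the exact permutation test). Adjusted over 3 quantities, the 5p share included, the summed share of all assigned reads and this ratio both had a p of 1. The p of the 5p share was fixed in advance, so counting it made this adjustment stricter.

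The members did not follow each other across libraries. Over the 6 libraries the Pearson r of log2(RPM + 1) between miR-320-3p and miR-484 was -0.251, with a Spearman rho of -0.31, given as a description. Of 217 other miRNAs of at least 10 RPM, those most like miR-320-3p were miR-195-3p (r = 0.697), miR-191a-5p (r = 0.681) and miR-140-5p (r = 0.566), so none followed it closely. miR-195-3p, the minor strand of a miR-15 family hairpin, stood at 39.0 ± 2.56 RPM over wild type and 39.0 ± 4.68 RPM over knockout libraries (SD, n = 3).

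miR-484 had close companions. The 3 most like it among 218 miRNAs were miR-151-5p (r = 0.989), miR-378b (r = 0.983) and miR-378a-5p (r = 0.982), followed by the opposite strand miR-378a-3p (r = 0.979), over the same 6 libraries, in each of which these values share 1 total. miR-378a is encoded in an intron of Ppargc1b, a coactivator of mitochondrial genes, and miR-151 in an intron of Ptk2, the gene of focal adhesion kinase. Wild type libraries 1 to 3 held 39.3, 41.5 and 19.1 RPM of miR-151-5p, and knockout libraries 1 to 3 held 32.2, 44.5 and 33.9 RPM. In the same order, miR-378a-5p had wild type values of 170.6, 189.0 and 80.9 RPM and knockout values of 146.1, 198.0 and 172.9 RPM. miR-378a-3p had wild type values of 9929, 10593 and 5074 RPM and knockout values of 9587, 10842 and 9801 RPM. Each had its lowest value in wild type library 3 and its highest in knockout library 2, as miR-484 did. miR-378b and miR-378a-3p are similar in sequence, and reads may have been split between them.

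The ratios of miR-484 to these companions describe the same values, since the companions were picked for following it. Without wild type library 3, over 5 libraries, the r was 0.94 for miR-151-5p, 0.87 for miR-378b and 0.83 for miR-378a-5p. Per 1000 reads of miR-151-5p there were 263.4, 256.0 and 237.7 reads of miR-484 for wild type libraries 1 to 3 and 284.7, 284.4 and 275.4 for knockout libraries 1 to 3. These groups did not overlap, but the gap between 263.4 and 275.4 was far below counting error. In those libraries miR-484 had 104 and 84 reads, with exact Poisson intervals of 8.46 to 12.5 and 7.45 to 11.6 RPM. Single miRNAs did not overlap in 26.0% of those tested on the RPM scale, and the share among ratios was not computed. The ratios to miR-378b and to each strand of miR-378a overlapped between genotypes. Per 1000 reads of miR-378a-3p there were between 0.895 and 1.17 reads of miR-484 in every library, with 0.981 ± 0.077 over wild type and 1.02 ± 0.122 over knockout libraries (SD, n = 3). The log2 changes between genotypes were 0.20 for miR-151-5p, 0.33 for miR-378b and 0.31 for each strand of miR-378a, and none passed (limma adjusted p between 0.521 and 0.707).

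The low value of miR-484 in wild type library 3 was shared by a limited set. Of 218 miRNAs of at least 10 RPM, 8 were lower in it than in every other library by at least 1.5-fold. They were miR-378b, miR-378a-3p, miR-378a-5p, miR-183-5p, miR-151-5p, miR-148b-5p, miR-151-3p and miR-128-3p, listed after their values were seen. miR-484, just under that abundance, was lower by 2.02-fold, a factor exceeded by 1 of the 8, miR-378b with 2.04-fold. By the same measure knockout library 1 was low for 5 miRNAs and the other 4 libraries for 0. In the other direction, wild type library 1 was above every other library by that factor for 12 miRNAs, wild type library 2 for 1 and the other 4 for 0. miR-320-3p was not among them, with 212.93 RPM in wild type library 3, the highest of its group.

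**Figure D4:**
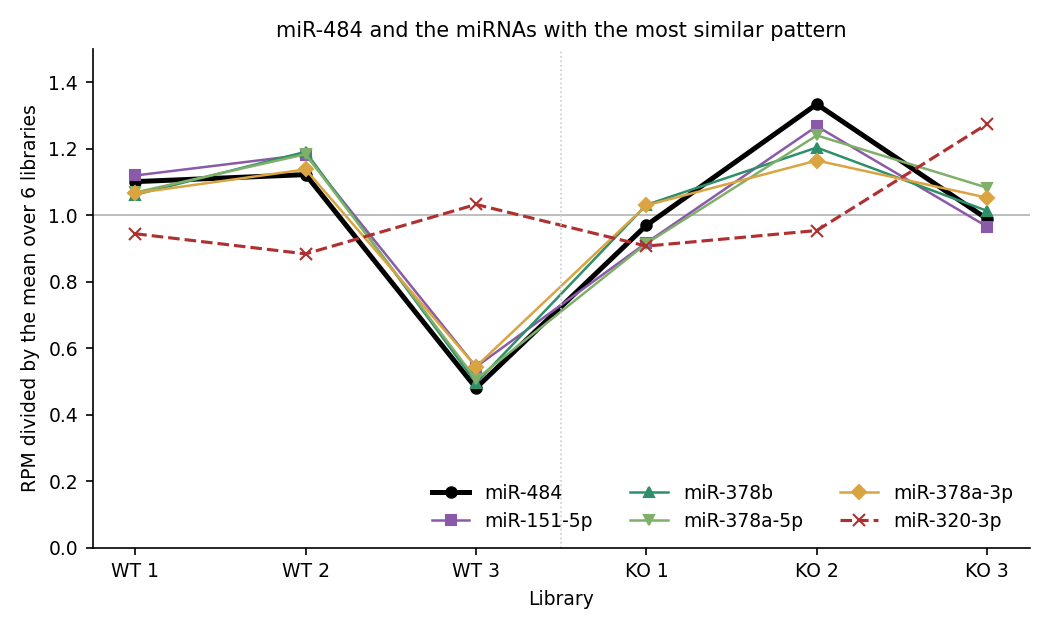
RPM of miR-484, miR-151-5p, miR-378b, miR-378a-5p, miR-378a-3p and miR-320-3p in each library, divided by the mean of the 6 libraries; lines join the points of 1 miRNA for reading only, since libraries have no order. miR-484 and its 4 companions dip together in wild type library 3 (4.54 RPM for miR-484) and peak in knockout library 2 (12.64 RPM), and miR-320-3p does neither.

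Other miRNAs made without Drosha or without Dicer were looked up by name. The list held 11 names of mirtrons, which are spliced introns, of miR-451, which is cut by Argonaute 2 in place of Dicer, and of miR-664, from a small nucleolar RNA. Of these, 10 had a row, 2 were at 0 in every library and 8 were tested. None passed in limma (0 of 8, beside 6.32% of all tested miRNAs), in edgeR on recovered reads (0 of 8) or in DESeq2, where 4 of the 8 had an adjusted p. In limma 1 of 8 had an unadjusted p below 0.05, beside 19.3% of all tested miRNAs. Their median log2 change was -0.21, beside -0.12 over all tested miRNAs. Of the 8 estimates 7 were below 0, and the share below 0 over all tested miRNAs was not counted. Of the 218 miRNAs of at least 10 RPM only 54 were above 0, but 6 of the 8 lie under that abundance. With TMM scaling miR-664-2-5p moved from -0.01 to 0.13, miR-451-5p from -0.37 to -0.15 and miR-664-3p from -0.60 to -0.39. In that setting miR-702-3p, miR-3102, miR-877 and miR-702-5p also stayed below 0, at -0.26, -0.21, -0.14 and -0.10. miR-451-3p was above 0 at 0.16.

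The 2 of these with at least 10 RPM are shown with the mature miRNA in capitals within the hairpin, for comparison with miR-484. In miR-451 the mature strand runs from the 5′ arm through the loop.
mir-451 hairpin: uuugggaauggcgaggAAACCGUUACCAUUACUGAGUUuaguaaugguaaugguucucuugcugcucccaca
mir-664 hairpin: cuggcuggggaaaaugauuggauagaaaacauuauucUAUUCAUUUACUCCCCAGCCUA
miR-451-5p, an erythroid miRNA, averaged 247.7 ± 35.5 RPM over wild type and 192.2 ± 30.8 RPM over knockout libraries (SD, n = 3), and its log2 change was -0.37 (SE 0.17; adjusted p = 0.267 in limma). Wild type libraries 1 to 3 held 16.52, 11.84 and 12.88 RPM of miR-664-3p, and knockout libraries 1 to 3 held 7.22, 8.36 and 10.68 RPM. These groups did not overlap, as in 26.0% of all tested miRNAs on this scale, and the log2 change of -0.60 (SE 0.24) did not pass (limma adjusted p = 0.211). The mirtron products miR-877, miR-702-3p, miR-702-5p and miR-3102, with miR-451-3p and miR-664-2-5p, reached at most 3.68 RPM in any library. Among the noncanonical miRNAs listed here, miR-451-5p and miR-320-3p were thus the abundant ones, at means of 220.0 and 206.1 RPM, and miR-664-3p and miR-484 followed at 11.2 and 9.45 RPM.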

How the data were processed

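Small RNA libraries from 1 μg of total RNA were read from 1 end over 50 bp, per the labels' protocols. The authors deposited RPM for 764 miRNAs in 6 libraries, with their mean RPM of each genotype, log2 fold change and p-value, per the file headers. The submitters' processing notes name FastQC, BWA, edgeR and rn6; for trimming, multiple matches and the miRNA release, details were not given in the sources used here. Columns were matched to samples by name. Whether replicates are separate animals is not stated, so p-values measure the spread between libraries.

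For the 570 miRNAs with any read, log2(RPM + 1) was fitted on genotype in limma 3.58.1, using its intensity trend and Benjamini-Hochberg adjustment; 194 rows at 0 were left out. On simulated data the limma fit was run only with TMM scaling, so the unscaled fit used here was not tested in that way. Reads were recovered from the RPM steps (97.8% to 98.9% of values above 0 within 0.0051 RPM of whole reads). In wild type library 1 the step, 0.0996 RPM, is close to 0.1, so its total rests on higher values. edgeR 4.0.16 and DESeq2 1.42.0, run on these reads as alternatives, called 61 and 72 miRNAs. PCR copies were not removed. Named miRNAs were the members, the list of other noncanonical miRNAs of at least 10 RPM, sharers of a seed, the 3 nearest patterns, neighbours in abundance and tissue markers. Rarer noncanonical miRNAs, miR-378a-3p, the 6 lowest arm pairs and the 8 miRNAs low in wild type library 3 were named outside this rule, after their values were seen. Members, lists and rules were chosen with earlier results of these data known. Sequences are from RefSeq on GRCr8, and RNAfold 2.7.2 gave the structure.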

Additional observations from a re-analysis of the deposited data

How the results depend on the processing

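The change of miR-320-3p kept its direction in 16 of 17 alternatives and that of miR-484 in 15 of 16, and neither passed the threshold in any. A replicate block in this balanced design cannot move either estimate, nor can the filter at 10 RPM move that of miR-320-3p. These alternatives are in the counts but bear only on the p-value. With 1 library left out and no further scaling, the change ranged from -0.03 to 0.21 for miR-320-3p (negative without knockout library 3). It ranged from -0.08 to -0.05 for miR-320-5p, and from -0.03 to 0.51 for miR-484 (negative without wild type library 3). The log2 ratio of miR-484 to miR-320-3p differed by between -0.21 and 0.52 (negative without wild type library 3), and the summed share by between -0.00024 and 0.0036 percentage points (negative without knockout library 3). The only miR-320-5p read is in wild type library 3, so without it that arm could not be tested; DESeq2 gave no adjusted p for it, and the filter at 10 RPM removed it and miR-484. The number of miRNAs called was 36, and 61 with edgeR and 72 with DESeq2 on recovered reads, of which 26 and 35 were higher, against 4 of 36 on the RPM scale and 20 of 49 with TMM scaling. It was 22 in the replicate block, and between 5 and 26 with 1 library left out (17 without wild type library 2, and 13, 21 and 5 without knockout libraries 1, 2 and 3). Same-numbered libraries had correlations of deviations of 0.033, 0.176 and 0.204, so the numbers were not taken to pair them; the block changed no call among the members (limma adjusted p = 0.71, 0.771 and 0.605 for miR-320-3p, miR-320-5p and miR-484). With 3 reads taken as the limit, depth holds miR-320-5p to 0.299 to 0.361 RPM where it had 0 reads.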
